A study of Homo sapiens with 2 samples.

Results

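Crosslink sites of hnRNPM were examined in 8 human genes that sense, edit or process double-stranded RNA: DDX58, IFIH1, EIF2AK2, ADAR, DICER1, AGO2, STAU1 and TBK1. The genes were listed by their known roles, with earlier results of these data known. A site was counted for a gene when its middle lay inside the GRCh37 interval of the gene and on the strand of the gene. By this rule 69 sites belonged to 6 of the 8 genes, out of 54373 sites in the whole list (0.127%). IFIH1 and ADAR had none. Of fixed windows of 64.4 kb on 1 strand, the median length of the 8 genes, 10.7% held at least 1 site. This share covers the whole genome, also where nothing is transcribed, so it sets no expectation for genes. The sites were mapped by iCLIP, a method that fixes a protein on its RNA with ultraviolet light and reads the bound position from where reverse transcription halts. The cells were HMLE, an established line of human breast epithelial cells, of WT genotype and given DMSO. There were 2 libraries, labelled as biological replicates, both precipitated with an antibody against hnRNPM, and they formed 1 group. The deposited list has 1 value per site and names no library, so no spread between replicates, no depth per library and no comparison with another condition could be given.

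hnRNPM is a nuclear RNA-binding protein that takes part in the choice of splice sites. Double-stranded RNA, which forms where inverted repeats pair within a transcript or during virus replication, is recognised by cytoplasmic sensors. RIG-I, encoded by DDX58, and MDA5, encoded by IFIH1, signal through the adaptor MAVS to the kinase TBK1, which phosphorylates IRF3 and so switches on interferon genes. PKR, encoded by EIF2AK2, stops translation once double-stranded RNA activates it. ADAR deaminates adenosines in double-stranded RNA, which weakens the pairing. DICER1 cuts hairpins and long duplexes into small RNAs, AGO2 carries these to their targets and can cut them, and STAU1 binds duplexes in messenger RNAs and takes part in their transport and decay. The study of which this list is a part concerned splicing linked to LINE repeats and the response to double-stranded RNA. The sites show where hnRNPM touched the transcripts of these genes, and not how much of each protein was made.

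The 3 genes of small-RNA processing and duplex binding held most of the sites. AGO2 had 20, STAU1 had 17 and DICER1 had 14, together with 9 in DDX58, 6 in EIF2AK2 and 3 in TBK1. All 69 sites lay on the strand of their gene, and no site of the opposite strand fell in any of the 8 intervals (100%, Wilson 95% interval 94.7 to 100%, counting error only). Sites of 1 strand alone were common in the list: in windows of 64.4 kb holding 2 or more sites over both strands, a single strand carried all of them in 95.3% of cases.

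Per length, STAU1 was the most densely covered, with 2.27 sites per 10 kb (95% Poisson interval 1.32 to 3.63, counting error only). DICER1 followed with 1.95 (1.07 to 3.27) and AGO2 with 1.92 (1.17 to 2.96). DDX58 had 1.27 sites per 10 kb (0.579 to 2.41), EIF2AK2 had 1.04 (0.381 to 2.26) and TBK1 had 0.599 (0.124 to 1.75). Each neighbour in this order overlapped the next in its interval, so that the order within the 6 genes is not fixed by these counts. For the genes without a site the interval was 0 to 0.714 in IFIH1 and 0 to 0.803 in ADAR. Both overlapped the intervals of DDX58, EIF2AK2 and TBK1, and lay below those of STAU1, DICER1 and AGO2. The 8 genes together had 1.31 sites per 10 kb, over a summed length of 528 kb. Among windows with at least 1 site the median was 0.466 sites per 10 kb (quartiles 0.155 and 1.09). The 2 values are unlike measures: the first is pooled and includes IFIH1 and ADAR, the second is a median that leaves out windows without a site. The density of STAU1 was reached by 7.77% of those windows, that of DICER1 and of AGO2 by 10.5%, that of DDX58 by 19.98%, that of EIF2AK2 by 28.0% and that of TBK1 by 48.1%. The windows start at fixed positions and often hold only part of a gene, so these shares place the genes in the list and test nothing.

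**Figure D1:**
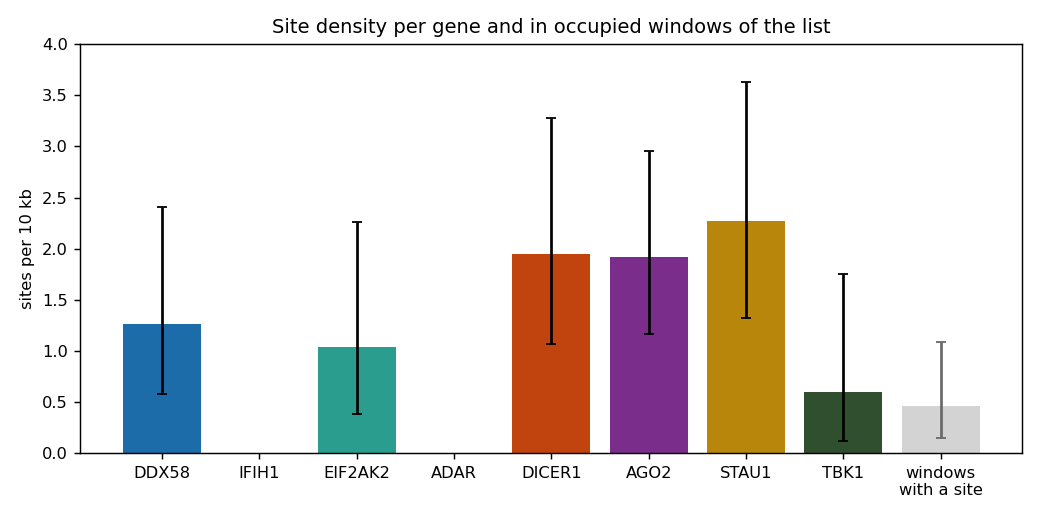
Sites per 10 kb (vertical axis) in each of the 8 genes, and at the right the median and quartiles of the 10018 one-strand windows with at least 1 site. The 95% Poisson intervals, which cover counting error, are drawn only for the genes with sites. STAU1, DICER1 and AGO2 stand at 1.92 to 2.27, IFIH1 and ADAR have no site, and the median window with a site is at 0.466.

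Each site carries a whole number, called its height here, which was read as the number of reverse transcription stops at the site. The heights in the 8 genes were close to those of the rest of the list. Their median was 12 (quartiles 10 and 18, range 5 to 58), against a median of 11 (quartiles 8 and 17) for the 54304 sites of the rest. A height of at least 20 was found for 15 of the 69 sites (21.7%, Wilson 95% interval 13.6 to 32.8%) and for 19.8% of the rest. No site in these genes reached a height of 75, which 458 of the 54373 sites of the list did. Sites so tall are rare in the list, so their absence among 69 sites is no trait of these genes. Heights were not corrected for RNA abundance, and sites of 1 gene share its RNA level, so no test over sites was made. Fewer RNA molecules and less binding per molecule cannot be told apart from heights.

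**Figure D2:**
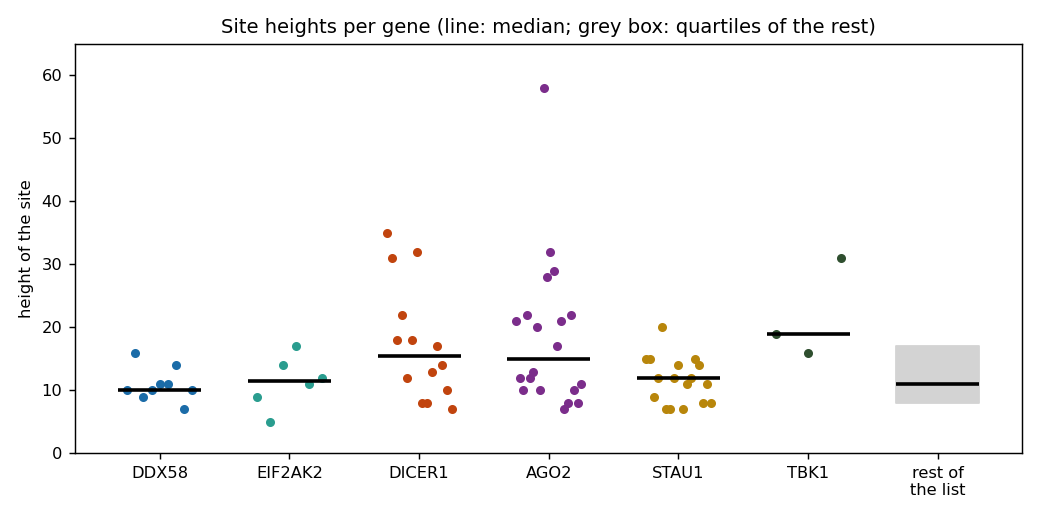
Height of each site (vertical axis, points in the order from the 5′ end within a gene) in the 6 genes with sites, with the median as a line, and at the right the median and quartiles of the rest of the list. AGO2 has the tallest site, at 58, while the 9 sites of DDX58 lie between 7 and 16.

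Among the sensors, DDX58 had 9 sites and IFIH1 none, though the Poisson intervals of their densities overlapped. The 9 sites of DDX58 (chromosome 9, minus strand, 32455300 to 32526322) formed a single group 4.38 kb long, which is 6.16% of the length of the gene. It began 12.4 kb and ended 16.7 kb from the 5′ end. In the order of transcription the heights were 10, 16, 9, 10, 11, 11, 14, 7 and 10. No height differed from the next by more than 7, and the tallest site was the second. That site lay from 32513404 to 32513424, and the first site of the group from 32513938 to 32513958. The closest pair was 31 nt apart, with a height of 11 for the upstream site (32511259 to 32511279) and of 14 for the downstream one (32511228 to 32511248). The remaining 54.3 kb up to the 3′ end were free of sites. The next site on this strand downstream of the gene was 4.36 Mb away, and the next one upstream was 21.0 kb away. The group thus stood alone on its strand at the downstream side, over a distance many times the length of the gene.

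IFIH1 (chromosome 2, minus strand, 163123589 to 163175218), which encodes the sensor of long duplexes, had no listed site. The nearest sites of its strand lay 1.33 Mb upstream and 1.77 Mb downstream, so the 3.16 Mb between them held no listed site of the minus strand. The names of the sites hold a running number that rose along each strand without exception. If it numbers the candidates from which the listed sites were kept, which the file does not define, the 5 numbers missing between those flanking sites are the most candidates that this distance can have held. No RNA level was measured in this series. A low level of the IFIH1 transcript and a lack of binding to it cannot be told apart.

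EIF2AK2, the kinase PKR, had 6 sites (chromosome 2, minus strand, 37326353 to 37384208) in 2 groups. The first group, 4271 and 4997 nt from the 5′ end, had heights of 9 and 5. The second, from 23.0 to 25.2 kb, had heights of 14, 17, 11 and 12 in the order of transcription. All sites of the second group were taller than both of the first, and 18.0 kb without a site lay between the groups. The site of height 5, from 37379201 to 37379221, was the lowest in the 8 genes, and its P of 9.95e-04, as deposited by the authors, was the largest. The tallest site lay from 37360748 to 37360768, the one nearest the 5′ end from 37379927 to 37379947. The closest pair, 341 nt apart, were the last 2 sites, from 37359342 to 37359362 and from 37359001 to 37359021. The last 32.7 kb of the gene held no site.

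ADAR (chromosome 1, minus strand, 154554534 to 154600475), the editing enzyme, had no listed site either. The nearest sites of the strand were 344 kb upstream and 400.0 kb downstream. Between them 22 running numbers were missing over 790 kb, and how many of these belong to ADAR is not known. ADAR is the shortest of the 8 genes, at 45.9 kb. As for IFIH1, little RNA and little binding cannot be told apart here.

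DICER1 had 14 sites (chromosome 14, minus strand, 95552565 to 95624347), and the tallest of them lay near the 5′ end. Within the first 10 kb the heights were 35, 31, 18, 22, 12, 18, 32 and 8 in the order of transcription. Beyond 10 kb they were 8, 13, 17, 14, 10 and 7. The medians were 20 and 11.5, and the ranges of 8 to 35 and 7 to 17 overlapped. The limit of 10 kb was chosen after the values were seen. The site nearest the 5′ end, 1.63 kb into the gene from 95622704 to 95622724, was also the tallest, and 6.15% of the list had a height of at least 35. The closest pair was 158 nt apart, with heights of 14 for the upstream site (95594873 to 95594893) and 10 for the downstream one (95594715 to 95594735). These 2 shared a tag cluster with a site of height 17. A tag cluster is named for each site in the list but not defined there, and was read as a group of overlapping reads. The last site was 38.7 kb from the 5′ end, and the following 33.1 kb had none. On this strand the nearest other sites were 109 kb upstream and 1.01 Mb downstream.

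AGO2 had 20 sites (chromosome 8, minus strand, 141541264 to 141645646), the most of the 8 genes, and 35.5% of their summed height of 1045. Its first 6 sites lay 0.881 to 2.07 kb from the 5′ end and shared 1 tag cluster, with heights of 21, 12, 10, 22, 12 and 13 in the order of transcription. The first of them lay from 141644755 to 141644775. The closest pair of the gene was among them, 52 nt apart, from 141644314 to 141644334 and from 141644262 to 141644282. Of the 40129 tag clusters of the list, 0.496% held 6 or more sites and 2.73% held 4 or more. In the 8 genes this was the only one of 48 tag clusters with 4 or more, a share close to that of the list. The following sites had heights of 20 at 8.06 kb, 10 at 11.1 kb and 58 at 13.7 kb. The site of height 58, from 141631978 to 141631998, was the tallest in the 8 genes, and 1.73% of the list was at least as tall. It stood alone in its tag cluster, and its neighbours on either side were 2.54 and 6.03 kb away.

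Further into AGO2, 3 sites of 1 tag cluster at 19.7, 20.6 and 20.8 kb had heights of 28, 32 and 29. They were followed by heights of 17 and 21 24985 and 25807 nt from the 5′ end. The other 6 sites, from 36.4 to 59.9 kb, had heights of 7, 8, 22, 10, 8 and 11. Only 1 of these 6 reached 20, against 8 of the 14 sites before them, a division chosen after the values were seen. The last 44.5 kb held no site. Another 9 sites of the same strand lay upstream within a distance equal to the length of the gene, the nearest at 47.3 kb. In GENCODE the next protein-coding gene of that strand upstream of AGO2 is PTK2, and whether the 9 sites belong to it was not placed. GENCODE, on the later build GRCh38, gives AGO2 a length of 115 kb, against 104 kb in the interval used here, so that the 5′ or 3′ end of AGO2 depends on the annotation.

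STAU1 had 17 sites (chromosome 20, minus strand, 47729876 to 47804904), and its sites reached over more of the gene than in the other 5 genes with sites. The first site was 1.58 kb and the last 68.7 kb from the 5′ end, so that the sites spanned 89.4% of the gene. The heights in the order of transcription were 15, 15, 9, 12, 20, 7, 7, 12, 14, 7, 11, 12, 15, 14, 8, 11 and 8. The heights stayed between 7 and 20 along the whole gene, with a median of 12. The 17 sites lay in 15 tag clusters, and 13 of them were the only site of their cluster. The tallest site lay from 47788892 to 47788912, and the site nearest the 5′ end from 47803313 to 47803333. The closest pair, 241 nt apart, joined the tallest site to one of height 12 upstream of it, from 47789133 to 47789153. The nearest other sites of the strand were 446 kb upstream and 1.75 Mb downstream, so all 17 stood apart from other listed sites of the minus strand.

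TBK1, the kinase downstream of the sensors and the only one of the 8 genes on a plus strand, had 3 sites (chromosome 12, 64845840 to 64895899). They lay close to the middle of the gene, 23.3, 24.7 and 25.6 kb from the 5′ end, with heights of 19, 16 and 31. The site of height 19 lay from 64869125 to 64869145 and the tallest from 64871416 to 64871436. The closest pair, 921 nt apart, was the tallest site and the one of height 16 before it, from 64870495 to 64870515. The median height of 19 was the highest of the 6 genes, over 3 sites only. The authors' names give 1 expected height per tag cluster. It was read as the height that a site of the cluster would have at random. The expected height was also high here: 1.06 for the first site and 1.54 for the other 2. Upstream of the gene, 2 more sites of the strand lay within a distance of 1 gene length, the nearest 7.86 kb from the 5′ end. The next protein-coding gene upstream on that strand is XPOT in GENCODE, and these sites were not counted for TBK1.

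**Figure D3:**
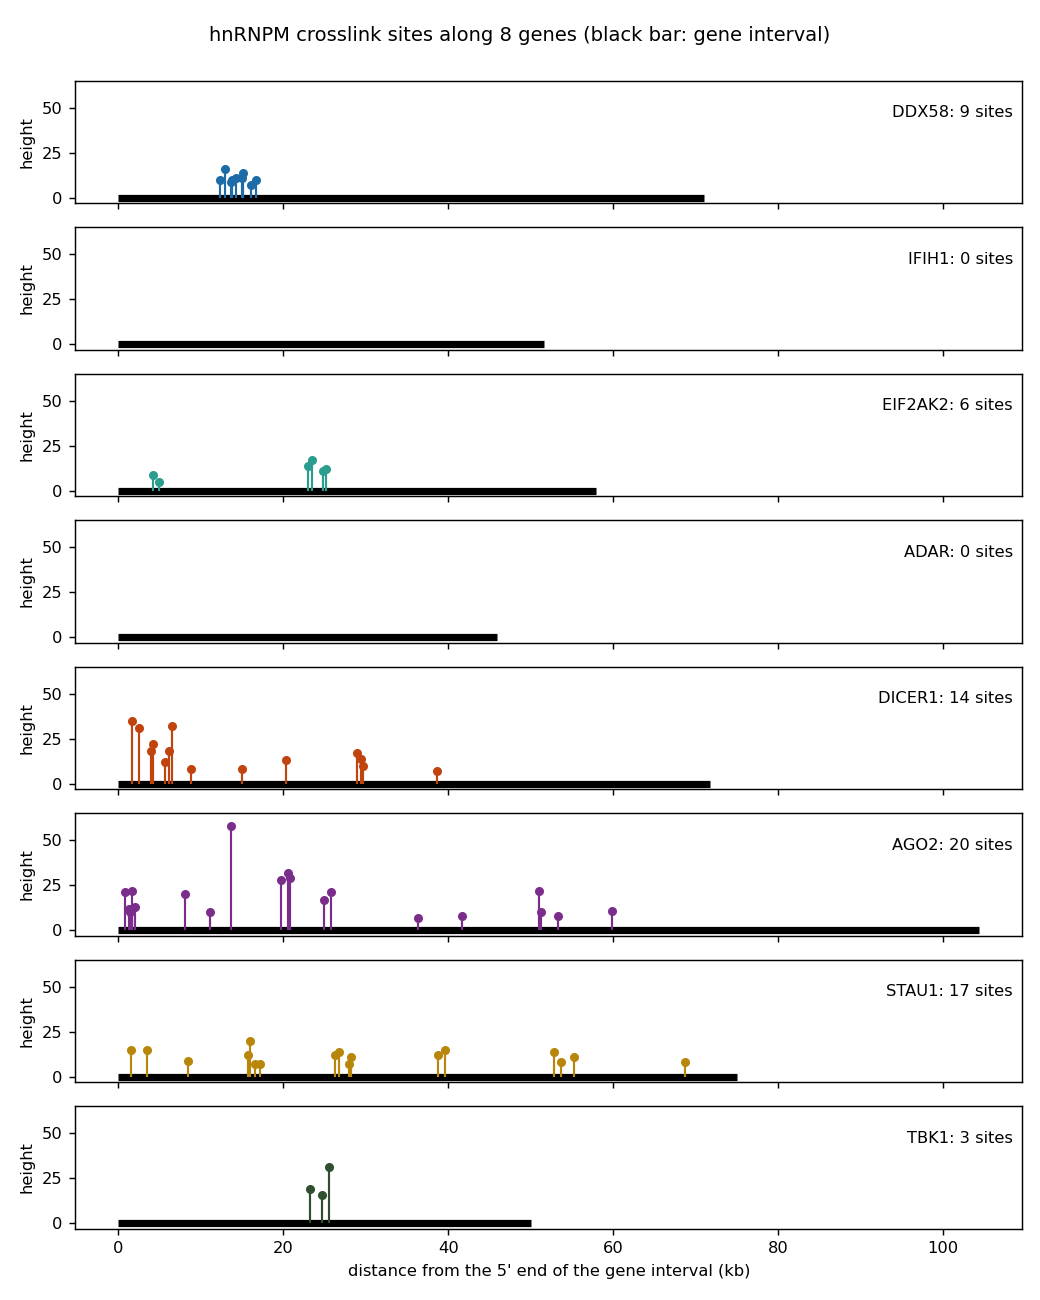
Sites along the 8 genes, with the distance from the 5′ end of the gene interval in kb (horizontal axis) and the height of the site (vertical axis, the same in all panels); the black bar is the length of the interval. DDX58 and TBK1 have 1 compact group each, and the sites of STAU1 span 89.4% of its length. The stretch before the 3′ end is free of sites for at least 24.47 kb in DDX58, EIF2AK2, DICER1, AGO2 and TBK1.

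Taken over the 6 genes, most sites lay in the part nearer the 5′ end, but not in every gene. Of the 69 sites, 59 lay in the first 50% of their gene (85.5%, Wilson 95% interval 75.3 to 91.9%, counting error only; sites of 1 gene are not independent). These were all 9 sites of DDX58, all 6 of EIF2AK2, 13 of 14 in DICER1, 18 of 20 in AGO2, 11 of 17 in STAU1 and 2 of 3 in TBK1. STAU1 gave 6 of the 10 sites in the second 50%, and without it the share in the first was 92.3% (48 of 52). The 3 sites of TBK1 lay about its middle, from 46.5% to 51.1% of the length, and the last site of AGO2 lay at 57.4%. The first 10 kb held 20 of the 69 sites: 8 in DICER1, 7 in AGO2, 3 in STAU1 and 2 in EIF2AK2. No comparable share of the list could be had, since the ends of other genes on GRCh37 were not at hand, so whether the position differs from that in other genes was not tested. Exons and introns were not placed for the same reason. In GENCODE, the microRNA gene MIR3173 lies within DICER1 and the unclassified gene AC067931.1 overlaps AGO2, each on the same strand. A site in the part shared with them could not be assigned to 1 gene, and whether any listed site lies there was not placed. By length in GENCODE, introns made up from 78.9% of ADAR to 94.5% of STAU1.

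The spacing of neighbouring sites depended on the gene. The median of the 63 gaps was 909 nt (quartiles 450 and 5098 nt), against 1421 nt (494 and 5261 nt) for neighbours of 1 strand at most 50 kb apart in the rest of the list. The binomial 95% interval of the members' median, 642 to 1559 nt, includes the value of the rest. Without DDX58 alone the median was 1370 nt. Gaps under 1 kb made up 33 of the 63 (52.4%), and 41.7% in the rest. DDX58 had 7 of its 8 gaps under 1 kb, and AGO2 9 of 19. Of the 69 sites, 35 shared a tag cluster with another site (50.7%, Wilson 95% interval 39.2 to 62.2%), against 43.4% of the rest, a share inside that interval. The share differed among the genes: it was 4 of 17 in STAU1, 11 of 20 in AGO2, 8 of 14 in DICER1 and 6 of 9 in DDX58.

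Height over expected height was alike in the 8 genes and in the rest of the list, with medians of 24.2 (quartiles 20 and 28.8) and 23.7 (18.3 and 30.6). The expected height itself had a median of 0.53 in the 8 genes and of 0.51 in the rest. Of the 69 sites, the tallest site of AGO2 had the highest ratio, at 62.4 times its expected height. A site of height 14 in STAU1 followed with 46.7 times, then sites of height 21 and 22 in AGO2 with 44.7 and 44.0 times. The tallest site of DICER1 was 42.7 times its expected height. How many sites of the list reach such ratios was not counted. At the other end, the site of height 16 in TBK1 was 10.4 times its expected height and the site of height 10 among the first 6 of AGO2 was 10.99 times. EIF2AK2 had low heights but a median ratio of 28.5, the highest of the 6 genes, and TBK1 had the highest median height with the lowest median ratio, 17.9. The P that the authors gave for each site was at its smallest value, 1e-100, in 18 of the 69 sites (26.1%, Wilson 95% interval 17.2 to 37.5%) and in 16.2% of the rest. AGO2 gave 9 of these 18 and DICER1 gave 6, while DDX58 had none. The smallest P did not follow the height. The tallest site of DICER1, of height 35, was not among the 18, while sites of height 18 in that gene were. In TBK1 the site of height 19 was among them and that of height 31 was not. The share at the smallest P is therefore no measure of how strong the sites were.

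**Figure D4:**
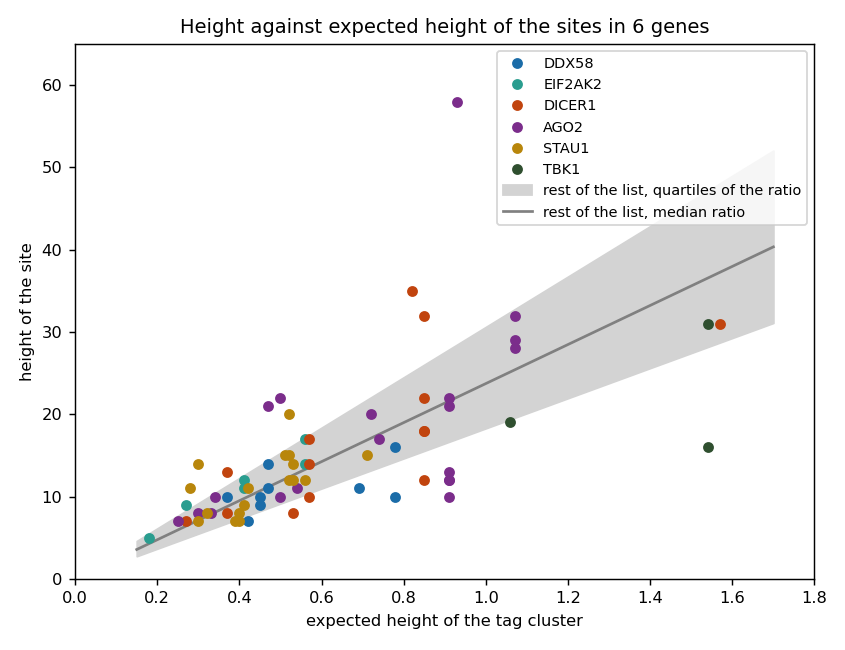
Height of each of the 69 sites (vertical axis) against the expected height of its tag cluster (horizontal axis), both without a unit, coloured by gene, with the median ratio and its quartiles in the rest of the list as a grey line and band. Most sites lie in or near the band, and the AGO2 site of height 58 lies above it.

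The share of running numbers present differed among the genes. Between the first and last site of DDX58, 9 of 15 numbers were listed (60.0%), and in EIF2AK2 6 of 15 (40.0%). The share was 34.0% in STAU1, 31.1% in DICER1, 23.0% in AGO2 and 21.4% in TBK1, where it was 3 of 14. In the whole list 24.2% of the numbers up to 224765 were present. If the missing numbers are candidates that did not pass the authors' threshold, AGO2 had 67 of them between its first and last site and DDX58 had 6. The counts are small, both ends of each stretch are listed sites by construction, and the file does not define the number.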

How the data were processed

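Per the labels, hnRNPM was precipitated from ultraviolet-crosslinked HMLE cells in 2 iCLIP libraries of 1 group. Positions are on GRCh37, as the submitters' processing notes name it. How reads were aligned, sites called and filtered, PCR duplicates handled and libraries pooled is not given in the sources used here. As deposited by the authors, the data are 1 list of 54373 sites of 21 nt. The deposited score of a site, its height, equalled the value PH in its name for every site. The name also holds an expected height, a P, a tag cluster and a running number, none of them defined in the file.

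Sites were assigned by their middle and strand to gene intervals on GRCh37. The members and the lists were chosen with earlier results of these data known. All 8 genes were to be named, and in each the tallest site, the one nearest the 5′ end and the closest pair. Intervals for counts, shares and medians are 95% Poisson, Wilson and binomial, and cover counting error only; no test was run. GENCODE release 29 (GRCh38) gave only gene lengths, intron shares and neighbouring genes, and no position was compared between builds. Exons, motifs, site sequences and other genes of the pathway were therefore not analysed here. Alternatives were sites of at least the median height, sites within 50 nt merged, any overlap with the gene, and each gene left out. The counting was checked on simulated sites. The counting used pandas 2.3.3 and numpy 2.4.6 under Python 3.11.15, the intervals scipy 1.17.1 and the plots matplotlib 3.10.9.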

Additional observations from a re-analysis of the deposited data

How the results depend on the processing

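Of 77 alternative values, 74 stayed within the 95% interval of the value reported, or for the count of sites within 1.5 times. Many of them could hardly move. Leaving out IFIH1 or ADAR, which had no site, changed only the density, and any overlap with the gene changed nothing. The share on the gene strand was 100% throughout. With sites of at least the list's median height, 46 sites remained, at the limit of 1.5 times and below the Poisson interval of 53.7 to 87.3. The density was then 0.872 sites per 10 kb and the median height 15.5, both by the construction of that alternative. Without STAU1, 92.3% of sites lay in the first 50% of the gene. Leaving out each gene in turn gave 49 to 69 sites, 1.15 to 1.45 sites per 10 kb and a median gap of 862 to 1370 nt, the highest without DDX58. The share of windows with a site was 9.23% for windows of 50 kb and 13.8% for 100 kb, lengths chosen after seeing the data. No paired analysis was possible because both libraries form a single group and share 1 deposited list, so no replicate was left out. Depth is unknown, and how many low sites were missed cannot be stated.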
